A study of Mus musculus with 7 samples.

Results

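A set of 10 genes that mark the endothelium of brain vessels and its barrier to the blood was followed through ribosome-bound and total RNA of the ventricular wall: Cdh5, Pecam1, Cldn5, Flt1, Kdr, Tek, Slc2a1, Slco1a4, Abcb1a and Ly6c1. They were taken by symbol, and all 10 were found among the 32531 symbols of each of the 7 count tables. The mice were adults of the Dcdc2a-TRAP line (ES2575), which carry an EGFP/Rpl10a transgene that tags ribosomes under the control of Dcdc2a. All libraries came from this line, so no animal without the tag is part of the comparison. Brain tissue around the ventricles was homogenised, and tagged polysomes were pulled down with antibodies against EGFP. Ribosomal-bound RNA from the pull-down gave 3 libraries (IP 1, IP 3 and IP 4), and total RNA gave 4 (Input 1 to 4). IP number 2 is not analysed here. The labels do not say whether a number marks an animal, nor whether animals were pooled. The p-values below therefore measure only the spread between these libraries, which may be technical.

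Endothelial cells form the inner lining of blood vessels. In most of the brain they are sealed to each other by tight junctions, lack pores and carry transporters that let nutrients in and pump foreign molecules out. Vessels of the choroid plexus are an exception, with endothelium that is fenestrated. The receptors for vascular endothelial growth factor (VEGF) and angiopoietin on these cells guide their growth and stability. In bulk RNA, fewer endothelial cells cannot be told apart from less RNA per cell.

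Counts assigned to genes ranged from 37203427 to 52175180 per library, and at that depth 3 reads correspond to 0.0585 to 0.0819 counts-per-million (CPM), counting error only. Dcdc2a, the gene that drives the tag, held 43.6, 411 and 175 CPM in IP 1, IP 3 and IP 4 against 27.7 to 73.9 in Input, so IP 1 lay within the Input range. IP and Input libraries carried different index sequences, 1 for each group, and this cannot be told apart from the group. A list of 10 genes of ependymal cells, which the series set out to profile, summed to 231 to 2765 CPM in IP and to 33.3 to 48.4 CPM in Input. The lowest of the IP sums was that of IP 1.

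Most of the 10 genes were scarce in both kinds of RNA, and 2 of them, Cdh5 and Slc2a1, rose in IP. IP was compared with Input over all genes with edgeR's quasi-likelihood test, with p-values adjusted by the Benjamini-Hochberg method and a threshold of 0.05, and every edgeR adjusted p below comes from it. Values are given in the order IP 1, 3, 4 and Input 1, 2, 3, 4. All 10 members passed the filter on low counts. In this test 2 of the 10 were higher and 0 lower, where 3.64% of the 17375 tested genes were higher and 2.16% lower. A count of 2 among 10 is too small to set against that share. At an unadjusted p under 0.05, 2 members were higher and 0 lower, where 13.3% of all genes were higher and 9.4% lower. DESeq2 also called 2 higher and 0 lower, where it called 8.03% of all genes higher and 5.54% lower. The median log2 fold of the members was -0.060, beside 0.058 over all tested genes. With the replicate number as a block, 0 of the 10 were called higher, where 0.553% of all genes were. Without IP 1 the same 2 members were called, where 12.5% of all genes were higher. With any other single library left out 0 members were called, where 0.0235% to 1.91% of all genes were higher. Most calls over all genes were thus lost in those fits too.

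**Figure D1:**
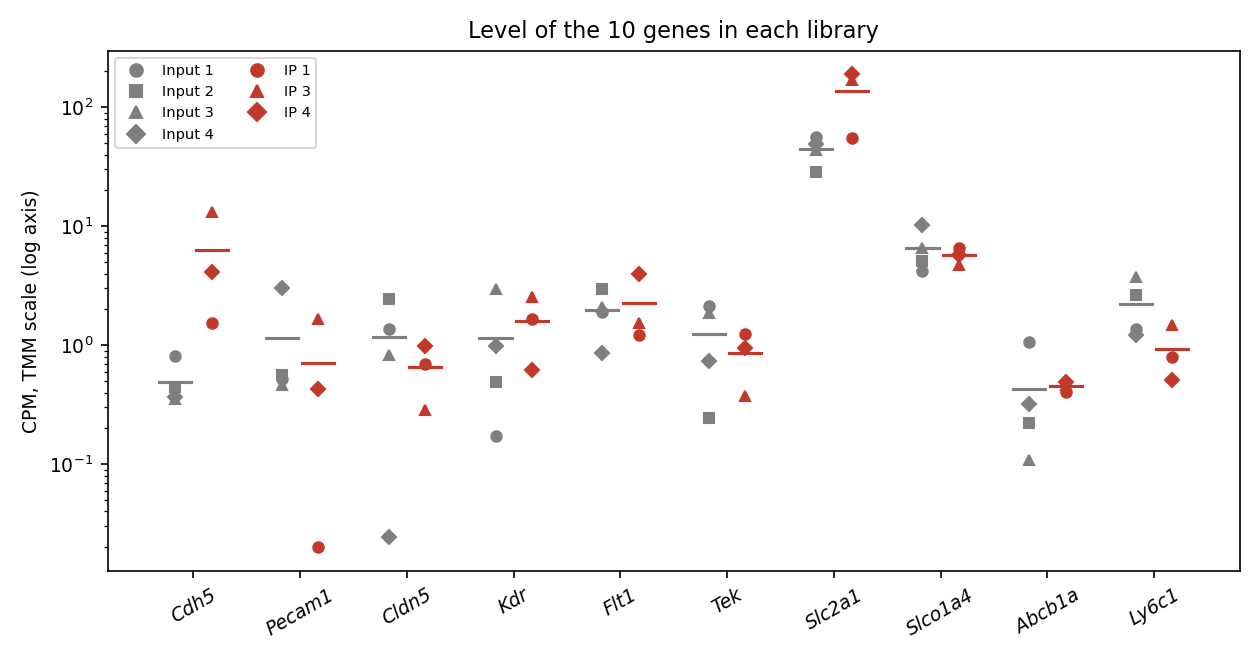
CPM on the TMM scale (log axis) of each of the 10 genes in the 4 Input libraries (grey) and the 3 IP libraries (red), with bars at the group means and a marker shape for each number. Cdh5 is the only gene whose IP libraries all lie above every Input, and Slc2a1 stands far above the other 9 in level.

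The junction and adhesion genes of the list were Cdh5, Pecam1 and Cldn5. Cdh5 encodes VE-cadherin, the cadherin that joins endothelial cells to each other (ENSMUSG00000031871.9, chromosome 8, 104101625 to 104144511, plus strand, GENCODE M21 on GRCm38). It had 77, 602 and 210 reads in the IP libraries and 33, 20, 13 and 15 in the Inputs. These correspond to 1.54, 13.3 and 4.10 CPM in IP, and to 0.809, 0.447, 0.355 and 0.368 in Input. The groups did not overlap, and IP 3 was by far the highest. Such a gap upward was seen in 9.55% of all tested genes, and among the members in Cdh5 alone. The mean rose from 0.495 ± 0.214 CPM (SD, n = 4) to 6.30 ± 6.16 CPM (SD, n = 3), which is a log2 fold (± SE) of 3.66 ± 0.84 (edgeR adjusted p = 0.0356). With the replicate block it did not pass (log2 fold 3.23, edgeR adjusted p = 0.244). Without IP 3 the log2 fold fell to 2.50 (edgeR adjusted p = 0.190). Cdh5 did not pass without IP 4 or with any single Input left out (edgeR adjusted p = 0.0802 to 0.112). In these fits 0.0235% to 1.91% of all genes were higher. Without IP 1 the log2 fold of Cdh5 was 4.12 (edgeR adjusted p = 0.00123).

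Pecam1 encodes the adhesion molecule CD31, which endothelial cells share with platelets and white blood cells (ENSMUSG00000020717.19, chromosome 11, 106654217 to 106750628, minus strand). It had 1, 76 and 22 reads in the IP libraries and 21, 25, 17 and 124 in the Inputs. The extremes of each group were 1 library, the single read of IP 1 and the 124 reads of Input 4, and the groups overlapped. The log2 fold was -0.69 ± 1.36 (SE, edgeR adjusted p = 0.823). Without Input 4 it was 0.46 (edgeR adjusted p = 0.909), so the direction rested on that library. The 95% exact Poisson interval of the IP 1 count was 0.0253 to 5.57 reads and that of Input 4 was 103 to 148, which cover counting error only.

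Cldn5 encodes claudin-5, the main claudin of brain endothelial tight junctions (ENSMUSG00000041378.2, chromosome 16, 18776847 to 18778262, plus strand, 1 exon). It had 35, 13 and 50 reads in the 3 IP libraries and 56, 109, 30 and 1 in the Inputs. Input 4, which held the most Pecam1, held a single read of Cldn5, and Input 2 the most. Their 95% exact Poisson intervals were 0.0253 to 5.57 and 89.5 to 131 reads. The means were 1.16 ± 1.01 CPM over the Inputs (SD, n = 4) and 0.654 ± 0.347 over the IP libraries (SD, n = 3), with a log2 fold (± SE) of -0.83 ± 1.28 (edgeR adjusted p = 0.765). With the replicate block the fold was 0.20 (edgeR adjusted p = 0.971), the opposite sign, and neither passed. The ratios within numbers were -0.94 for IP 1, -1.40 for IP 3 and 3.78 for IP 4 on the log2 scale, the last of them against the single read of Input 4.

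The receptors were Flt1, Kdr and Tek. Flt1 encodes VEGF receptor 1, which binds VEGF tightly and also occurs in a soluble form (ENSMUSG00000029648.13, chromosome 5, 147561604 to 147726011, minus strand). It had 1.22, 1.54 and 3.98 CPM in the IP libraries and 1.91, 2.97, 2.10 and 0.860 in the Inputs. The groups overlapped, with the highest value in IP 4 and the lowest in Input 4. The log2 fold was 0.20 ± 0.79 (SE, edgeR adjusted p = 0.917), and it was -0.50 without IP 4 and -0.054 without Input 4.

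Kdr encodes VEGF receptor 2, the main signalling receptor for VEGF (ENSMUSG00000062960.10, chromosome 5, 75932827 to 75978458, minus strand). It had 83, 115 and 32 reads in the IP libraries and 7, 22, 109 and 40 in the Inputs. Number 3 held the most in each group, 2.53 CPM in IP and 2.98 in Input, and Input 1 held the least with 0.172 CPM. The log2 fold was 0.48 ± 1.09 (SE, edgeR adjusted p = 0.850), and -0.029 without IP 3. Tek encodes Tie2, the receptor for angiopoietins (ENSMUSG00000006386.15, chromosome 4, 94739289 to 94874976, plus strand). It had 62, 17 and 49 reads in IP and 87, 11, 68 and 30 in the Inputs, and its groups overlapped. Its log2 fold was -0.53 ± 1.05 (SE, edgeR adjusted p = 0.824). The lowest Kdr and the highest Tek of the Inputs were both in Input 1.

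The transporters were Slc2a1, Slco1a4 and Abcb1a. Slc2a1 encodes GLUT1, which carries glucose across the blood-brain barrier and is also made by choroid plexus epithelium, glia and red blood cell precursors (ENSMUSG00000028645.11, chromosome 4, 119108711 to 119137983, plus strand). It had 55.3, 170 and 189 CPM in the IP libraries and 56.7, 28.8, 43.8 and 49.1 in the Inputs. IP 3 and IP 4 were above every Input, and IP 1 was within their range, just under Input 1. The mean rose from 44.6 ± 11.8 CPM (SD, n = 4) to 138 ± 72.3 CPM (SD, n = 3), which is a log2 fold (± SE) of 1.63 ± 0.39 (edgeR adjusted p = 0.0396). Within numbers the log2 ratios were -0.036 for IP 1, 1.95 for IP 3 and 1.94 for IP 4. Without IP 1 the log2 fold was 2.01 (edgeR adjusted p = 1.65e-05). It did not pass with the replicate block (log2 fold 1.31, edgeR adjusted p = 0.213). Nor did it with any single other library left out (edgeR adjusted p = 0.0896 to 0.153). The block called 0.553% of all genes higher, and those other fits 0.0235% to 1.91%. An antisense model, Gm12868, covers 105 of the 3506 exon bases of Slc2a1. Whether the counting used strand is not given in the sources used here.

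Slco1a4 encodes an organic anion transporter of brain endothelium and choroid plexus (ENSMUSG00000030237.14, chromosome 6, 141805440 to 141856199, minus strand). It had 6.59, 4.76 and 5.71 CPM in the 3 IP libraries and 4.17, 5.14, 6.58 and 10.2 in the Inputs. The IP values lay inside the Input range, and the spread in IP was small. The log2 fold was -0.20 ± 0.47 (SE, edgeR adjusted p = 0.854). Abcb1a encodes a P-glycoprotein, the drug pump of the barrier (ENSMUSG00000040584.8, chromosome 5, 8660077 to 8748575, plus strand). It had 20, 21 and 25 reads in IP and 43, 10, 4 and 13 in the Inputs, with a log2 fold (± SE) of 0.08 ± 1.18 (edgeR adjusted p = 0.978). The direction of Slco1a4 turned without Input 4 (log2 fold 0.10), and that of Abcb1a without Input 2 (-0.14), Input 3 (-0.24) or Input 4 (-0.041). A 50-base stretch is shared with another gene at 17.6% of the positions of the Abcb1a transcripts, nearly all with Abcb1b, its close relative. The antisense model Gm42686 covers 553 of its 5480 exon bases. The mean of Abcb1b was 2.11 ± 0.68 CPM over the Inputs (SD, n = 4) and 3.78 ± 1.5 over the IP libraries (SD, n = 3), and it was not called (edgeR adjusted p = 0.488).

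Ly6c1 encodes a surface protein anchored in the membrane by a lipid, which marks brain endothelium and some blood cells (ENSMUSG00000079018.10, chromosome 15, 75044018 to 75048830, minus strand). Its neighbour Ly6c2 (ENSMUSG00000022584.14) is a near copy, and the coding exons are shown because reads that fit both genes were not counted to either. Over 3 coding exons and 393 bases the genes differ at 9 positions and are 97.7% identical. The first coding exon of each, from transcripts Ly6c1-201 and Ly6c2-201 of GENCODE M21 (GRCm38, minus strand, 5′ to 3′, at chr15:75048442-75048511 and chr15:75111598-75111667), holds 6 of the differences, shown in capitals. The next exon of Ly6c1 (chr15:75047353-75047469) is the same in both genes over all 117 bases.
Ly6c1, first coding exon: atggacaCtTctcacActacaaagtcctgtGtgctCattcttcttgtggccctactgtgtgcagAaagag
Ly6c2, first coding exon: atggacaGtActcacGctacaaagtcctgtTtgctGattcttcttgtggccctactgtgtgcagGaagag
Ly6c1 and Ly6c2, next coding exon: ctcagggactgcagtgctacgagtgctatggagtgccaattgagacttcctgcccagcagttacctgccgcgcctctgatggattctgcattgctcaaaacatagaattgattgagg
Of the 50-base stretches of the Ly6c1 transcripts 32.8% also occur in transcripts of other genes, foremost Ly6c2 and Ly6a. Reads from such stretches may be missing from the Ly6c1 counts, so its level is uncertain.

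Ly6c1 had 40, 67 and 26 reads in the IP libraries and 56, 118, 136 and 50 in the Inputs. In CPM these were 0.801, 1.48 and 0.507 in IP, and 1.37, 2.64, 3.71 and 1.23 in Input. IP 3 lay above the lowest Inputs, so the groups overlapped, and each IP was below the Input of its number by 0.76, 1.31 and 1.23 on the log2 scale. The log2 fold, -1.27 ± 0.87 SE, missed the threshold (edgeR adjusted p = 0.437). Ly6c2 was listed at 0 reads in all 7 libraries. Ly6a, of the same gene cluster, had 8, 0 and 2 reads in the IP libraries and 23, 44, 74 and 9 in the Inputs, and its log2 fold, -3.77 ± 1.57 SE, missed the threshold (edgeR adjusted p = 0.186). Cdh5 and Ly6c1 were the 2 members whose ratio had the same sign within all 3 numbers. With only 3 numbers, such agreement is frequent by chance alone.

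**Figure D2:**
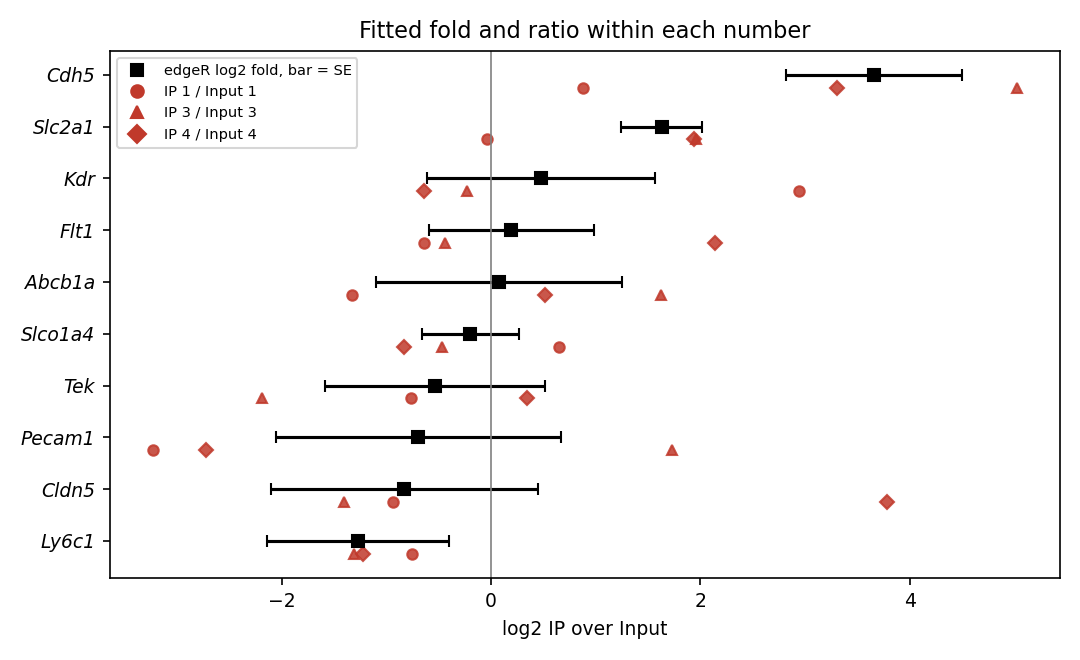
Log2 IP over Input for each gene: black squares are the edgeR folds with bars of 1 SE, and red symbols are the ratios of IP 1, IP 3 and IP 4 to the Input of the same number. Cdh5 (3.66) and Slc2a1 (1.63) lie to the right of 0 by more than their SE, and the ratios within numbers of most other genes fall on both sides of 0.

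Levels of different genes were compared per length of exon. Mean Input levels per kilobase of exon ran, from low to high, Abcb1a (0.0779 CPM per kilobase), Cdh5 (0.118), Kdr (0.128), Flt1 (0.145), Pecam1 (0.184), Tek (0.264), Cldn5 (0.822), Slco1a4 (1.02), Ly6c1 (1.33) and Slc2a1 (12.7). The Input ranges of each neighbouring pair in this order overlapped, except that Slc2a1 (8.21 to 16.2) lay above Ly6c1 (0.732 to 2.21). Among 15155 tested genes with a length, Slc2a1 stood at percentile 78.0 of Input levels per kilobase and the other 9 at percentiles 2.34 (Abcb1a) to 28.4 (Ly6c1). In IP the level per kilobase of Cdh5 was 1.499, at percentile 25.9, and that of Slc2a1 39.4, at percentile 93.8. By reads, Slc2a1 made up 65.5% to 91.4% of all reads on the 10 genes in a library.

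**Figure D3:**
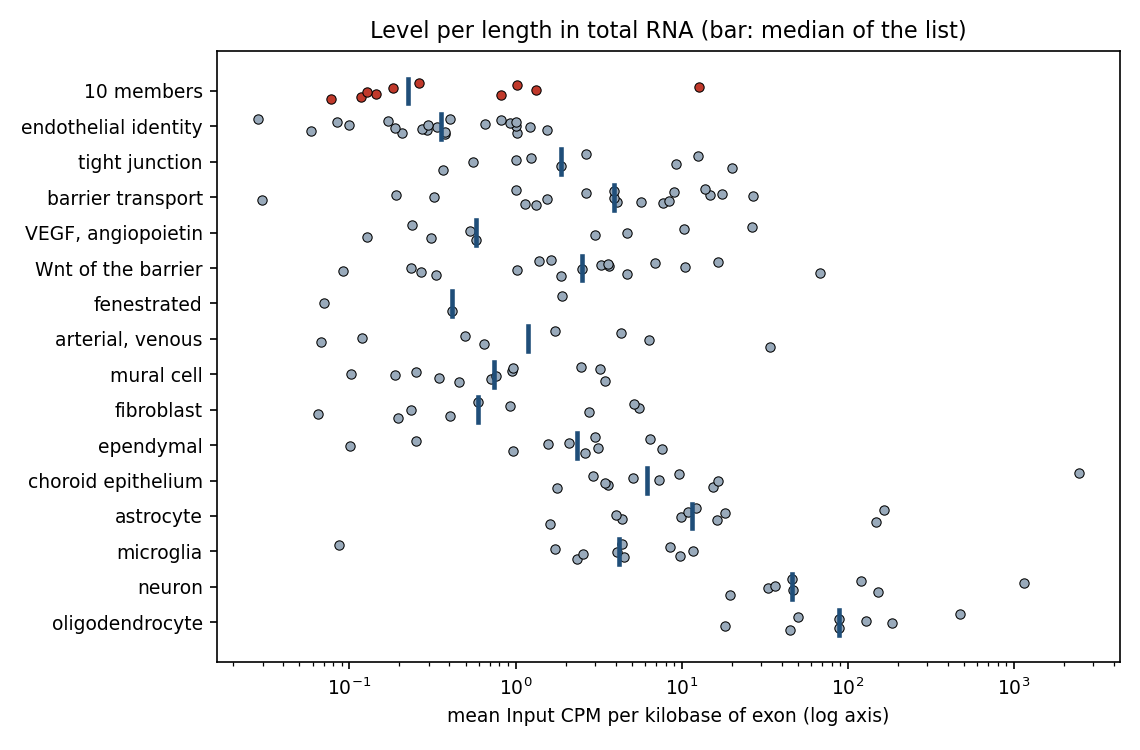
Mean Input CPM per kilobase of exon (log axis) for the tested genes of each list, 1 point a gene, with a bar at the list's median. Of the 10 members (red) 9 lie under 2 CPM per kilobase, as do all endothelial identity genes, and Slc2a1 is the lone member above 10 CPM per kilobase.

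Libraries of 1 group differed widely in these scarce genes. Leaving aside Cldn5, with its single read in Input 4, the highest Input value of Kdr was 17.3 times the lowest, that of Abcb1a 9.66 times, that of Tek 8.68 times and that of Pecam1 6.56 times. The coefficient of variation (CV, the SD over the mean) of Kdr was 1.09 and that of Pecam1 1.11, where tested genes within 1.5-fold of their mean Input level had a median of 0.723 and 0.724. The CV of Kdr was at percentile 82.5 of such genes, that of Pecam1 at 83.3, and the Cldn5 CV of 0.871 at 65.4. The spread of Kdr, Pecam1 and Cldn5 between Inputs was thus above that of most genes of like level but within their range. This did not hold for all members, as Tek was at percentile 50.9, Ly6c1 at 40.8, Flt1 at 26.6 and Slco1a4 at 61.6. Cdh5 was even between Inputs, with a CV of 0.431 at percentile 9.64, and uneven between IP libraries, with a CV of 0.978 at percentile 91.9. Abcb1a had a CV of 1.002 in Input, at percentile 61.3, where the median of like genes was 0.881. Its CV in IP was 0.0997, at percentile 0.763, on 20, 21 and 25 reads. The 95% exact Poisson interval of 20 reads, 12.2 to 30.9, covers 21 and 25. The evenness in IP is thus within counting error.

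Ratios between members within a library need no scaling, and they were compared for all 45 pairs with a two-sided exact permutation test over the 3 IP and 4 Input libraries. In this design 35 splits are possible and the smallest p they can give is 0.0286. That p was reached by 7 pairs, and none passed after Benjamini-Hochberg adjustment over the 45 (adjusted p = 0.184 for those 7 in the exact permutation test). From that floor, an adjusted p under 0.05 needs most of the 45 pairs at the smallest p. The lack of a passing pair was thus nearly fixed by the design and decides nothing. Cdh5 was 1 of the genes in 6 of the 7 pairs, so these 6 share its counts and are not independent. Relative to Pecam1, Cdh5 had a mean log2 ratio of -0.73 ± 1.504 over the Inputs (SD, n = 4) and 3.605 ± 0.97 over the IP libraries (SD, n = 3), a difference of 4.34. Relative to Slc2a1 its mean log2 ratio was -6.39 ± 0.50 over the Inputs (SD, n = 4) and -4.77 ± 0.97 over the IP libraries (SD, n = 3), a difference of 1.61. The differences were 2.98 against Flt1, 3.22 against Slco1a4, 2.67 against Abcb1a and 4.32 against Ly6c1. The remaining pair was Slc2a1 with Ly6c1, with a difference of 2.71.

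Markers of some other cells moved in the same libraries. Over all tested genes 3.64% were higher and 2.16% lower, and with the replicate block 0.553% were higher. Of 12 mural cell genes (pericytes and smooth muscle, which wrap the vessels) 3 were higher and 0 lower, with a median log2 fold of 2.65, and their summed level was 68.9 to 880 CPM in IP and 32.9 to 55.7 in Input. Vtn, a pericyte gene, had 14.6 to 239 CPM in IP and 3.61 to 8.02 in Input (log2 fold 4.51 ± 0.78 SE, edgeR adjusted p = 0.0185). Of 9 fibroblast genes 6 were higher and 0 lower (median 3.68), with sums of 122 to 832 CPM in IP and 67.5 to 118 in Input. All 10 ependymal genes were higher (median 5.71), a direction known from earlier results of these data. Of 10 choroid plexus epithelial genes and 10 microglial genes none was called, and of 10 astrocyte genes 2 were higher. With the replicate block 4 ependymal, 1 fibroblast and 0 mural genes were higher, and Vtn had an edgeR adjusted p of 0.0791. Of 8 neuronal genes 1 was lower (median -0.39), and of 8 oligodendrocyte genes 2 were lower (median -0.62). Of 8 listed blood genes 6 were in the tables and 5 were tested, and all 5 had a negative fold, with sums of 3.30 to 19.9 CPM in IP and 12.9 to 70.6 in Input, and Slc4a1, Pf4 and Ppbp were at 0 in some libraries.

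Set against the mean Input, each IP library gave the 2 called members a different standing. On the scale of log2(CPM + 0.1), Cdh5 had ratios of 1.46 in IP 1, 4.49 in IP 3 and 2.82 in IP 4. The mural cell list had medians of 0.42, 3.78 and 2.31 in the same libraries and the fibroblast list 1.05, 4.39 and 3.63, so these and Cdh5 were highest in IP 3. Slc2a1 had 0.31, 1.93 and 2.08, and the ependymal list 2.32, 6.24 and 6.06, with IP 3 and IP 4 close together in both. Other lists had like orders. The choroid plexus epithelial list had -0.76, 0.46 and 0.60, and the barrier transport list -0.10, 0.36 and 0.50. The astrocyte list, with 0.08, 0.99 and 0.66, was highest in IP 3. So was Dcdc2a, with 43.6, 411 and 175 CPM in IP 1, IP 3 and IP 4. Dcdc2a itself was not called (log2 fold 2.21 ± 0.63 SE, edgeR adjusted p = 0.0743). The other 8 members had medians of -0.36, -0.39 and -0.29, and 2, 3 and 2 of them lay above 0. The medians of the 5497 other tested genes in their range of Input means were -0.13, -0.20 and -0.17. All these ratios share the mean Input as denominator, so the 3 libraries are not independent in them. The part of the mural, fibroblast, ependymal, choroid plexus and astrocyte markers in the Cdh5 and Slc2a1 results was not tested.

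**Figure D4:**
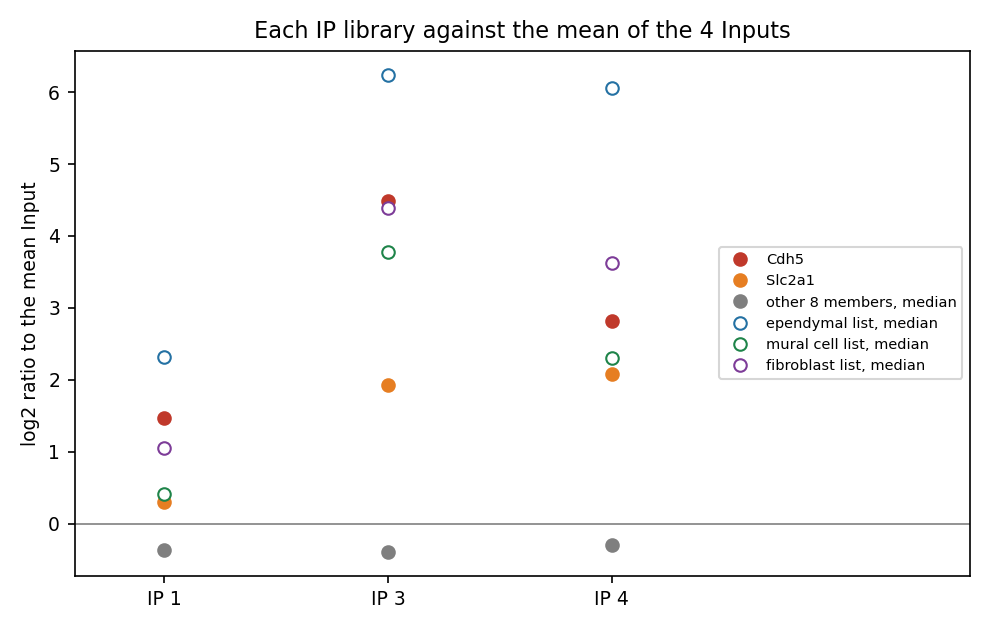
Log2 ratio of each IP library to the mean of the 4 Inputs, for Cdh5 and Slc2a1 singly and as medians for the other 8 members and 3 marker lists. Cdh5 and the mural and fibroblast medians are highest in IP 3, Slc2a1 and the ependymal median are similar in IP 3 and IP 4, and the median of the other 8 members is -0.36, -0.39 and -0.29. Lists not drawn here had like orders, among them choroid plexus epithelium and astrocytes.

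Genes whose levels followed a member most closely over the 7 libraries were looked up among 11198 named genes with a mean of at least 5 CPM, as a description. For Cdh5 these were Etfa (Pearson r = 0.991 on log2 CPM), Ipo11 (0.991) and Pam (0.990). For Slc2a1 they were Myb (r = 0.991), a transcription factor, Rgcc (0.991) and Car9 (0.989), a carbonic anhydrase. The 7 points share the split into IP and Input, and 4 of these 6 genes were themselves called higher: Etfa and Ipo11 (log2 folds 1.43 and 1.31, edgeR adjusted p = 0.0261 and 0.0286), and Myb and Car9 (5.004 and 5.06, edgeR adjusted p = 0.0233 and 0.0198). The closest to the other 8 were Alg10b for Pecam1, Pde4b for Cldn5, Dgcr2 for Flt1, Ndufaf7 for Kdr, Mtrf1 for Tek, Atxn1 for Slco1a4, Pramef8 for Abcb1a and Unc5d for Ly6c1. Their r was 0.940 to 0.985, and none of them was called. Each gene named here was picked as among the highest r of 11198 genes over 7 points. High values arise in such a search by chance alone.

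A further 7 lists of endothelial and barrier biology were examined, with 97 genes in the tables, of which 89 were tested. Of these, 2 were higher and 0 lower, 2.25% of the 89, where 5.81% of all tested genes were called in either direction. None of the 22 tested genes of endothelial identity was called, and 8 had a positive fold (median -0.33). Their log2 folds ran from -2.44 (Clec14a) to 2.26 (Eng). Eng had 1.30, 11.3 and 3.20 CPM in the IP libraries and 0.172 to 1.77 in Input (edgeR adjusted p = 0.184). In 1 gene of the list every IP was above every Input, and in 3 every IP was below. Over all tested genes the shares were 9.55% and 10.4%. All 24 of that list stood below percentile 30.7 of Input levels per kilobase, and 8 were at 0 in at least 1 library. Ptprb, the endothelial receptor phosphatase VE-PTP, was the most abundant of them. It had 6.07, 5.81 and 1.19 CPM in the IP libraries and 7.95 to 18.0 in Input, so every IP was below every Input, as in 10.4% of all tested genes. Its log2 fold, -1.502 ± 0.58 SE, missed the threshold (edgeR adjusted p = 0.160). Without IP 1 it passed as lower (-1.82, edgeR adjusted p = 0.0431), where 9.55% of all genes did. The next, Cd34, a surface sialomucin shared with blood stem cells, overlapped between groups (log2 fold -0.46 ± 0.52 SE, edgeR adjusted p = 0.672). None of 4 tested genes of fenestrated endothelium was called (median 0.65). Plvap, which builds the diaphragms of fenestrae, had 1.36, 0.132 and 0.741 CPM in IP and 3.02 to 5.39 in Input. Every IP was below every Input, as in 10.4% of all tested genes. The log2 fold of Plvap, -2.33 ± 0.88 SE, missed the threshold by edgeR (adjusted p = 0.149). It passed by DESeq2 (adjusted p = 0.0306), which called 5.54% of all genes lower. Without IP 1 it passed by edgeR (-3.10, edgeR adjusted p = 0.0362), where 9.55% of all genes were lower.

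The 2 called genes were Lrp8 and Apcdd1. Lrp8, 1 of 19 barrier transport genes (median log2 fold 0.27), encodes a lipoprotein receptor that also serves reelin in neurons. It had 138, 144 and 130 CPM in IP and 85.9, 82.2, 68.8 and 87.3 in the Inputs. Every IP was above every Input, as in 9.55% of all tested genes. The log2 fold was 0.76 ± 0.18 (SE, edgeR adjusted p = 0.0376, and 0.187 with the replicate block). Apcdd1, 1 of 17 genes of Wnt signalling at the barrier (median 0.34), encodes a membrane inhibitor of that pathway. It had 4.55, 32.5 and 26.9 CPM in the IP libraries and 2.67 to 5.65 in Input, with IP 1 inside the Input range (log2 fold 2.32 ± 0.60 SE, edgeR adjusted p = 0.0493, and 0.161 with the replicate block). Without IP 1 both were called (edgeR adjusted p = 0.00569 and 0.000116), where 12.5% of all genes were higher. With any 1 of the other libraries left out neither was called, where 0.0235% to 1.91% of all genes were higher.

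None of 9 tight junction genes (median 0.46), 10 genes of VEGF and angiopoietin signalling (median 0.26) and 8 tested arterial and venous genes (median 0.07) was called. Several of the most abundant genes of the 6 lists beside endothelial identity, such as Tjp1 and Ctnnb1, are also made by many cells outside vessels. Tjp1, the scaffold ZO-1, had 111 to 215 CPM in IP and 83.5 to 109 in Input (log2 fold 0.65 ± 0.24 SE, edgeR adjusted p = 0.145). Every IP was above every Input, as in 9.55% of all tested genes. Cldn12 had a log2 fold of -0.26. Slc39a10, a zinc importer, and Slc6a6, the taurine transporter, had log2 folds of -0.30 and -0.37. Nrp2, a co-receptor for VEGF family members and semaphorins, had 0.52, and Vegfa itself 0.22. Ctnnb1, which encodes beta-catenin, had 0.48 and the Wnt co-receptor Lrp6 -0.34. Ppap2a, a lipid phosphatase of the fenestrated list, had 0.12, Nr2f2, a transcription factor of veins, 0.71, and Ackr1, an atypical chemokine receptor of venules, -0.65. Reads of Ackr1 are uncertain, since 361 of its exon bases lie in the model of Cadm3 on the same strand, and Ppap2a, Ctnnb1, Nr2f2, Slc6a6 and Cd34 overlap models on the other strand, Ppap2a (Plpp1 in GENCODE) over 452 of its 1750 exon bases. None of these 11 genes passed over all 7 libraries. Without IP 1, Nr2f2 passed as higher (1.05, edgeR adjusted p = 0.0191) and Ackr1 as lower (-0.83, edgeR adjusted p = 0.0351). In that fit 12.5% of all genes were higher and 9.55% lower.

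**Figure D5:**
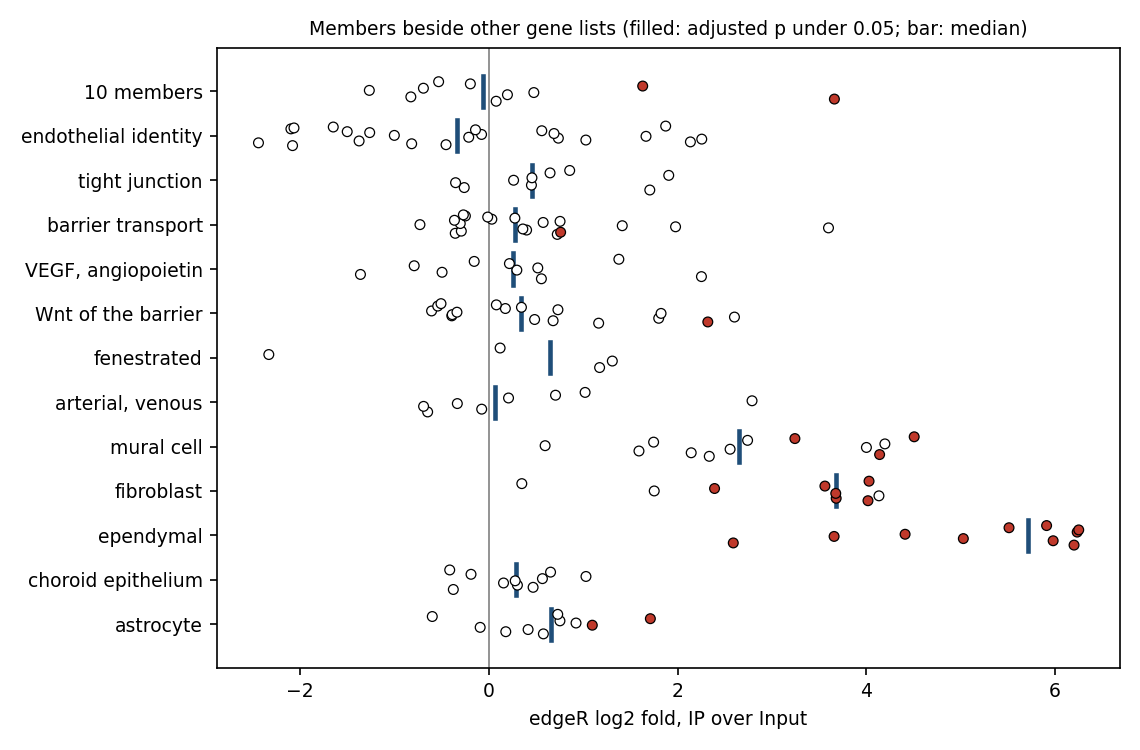
The edgeR log2 folds of the tested genes of each list, 1 point a gene, filled where the edgeR adjusted p is under 0.05, with a bar at the list's median. The members and the 7 other endothelial and barrier lists spread around 0 with 4 filled points in all, while the mural, fibroblast and ependymal lists have medians of 2.65, 3.68 and 5.71.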

How the data were processed

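Each library's deposited table lists raw counts of reads by gene symbol, not normalised by the authors. The tools named in the submitters' processing notes are STAR (2.0.0e) and HTSeq, and the build is mm10. Which annotation and strand setting were used is not given in the sources used here. Lines for reads in no gene, in several genes or aligned to several places made up 40.1% to 52.1% of each table and were left out. Genes were kept with filterByExpr (minimum count 10, minimum total 15) and libraries scaled with TMM factors in edgeR 4.0.16 (R 4.3.3). IP and Input were compared over all 7 libraries with glmQLFit (robust) and glmQLFTest, group as the only term. Each SE is the log2 fold over the root of the F statistic. CPM are on the TMM scale, and ratios within numbers use a prior count of 2. Ratios between members use counts plus 2. Fits were checked on simulated counts, with changes put into genes drawn from all tested ones. Of 94 genes with a true log2 change of 2 in size 61 were recovered, and of 97 with a change of 4, 78. Of 16765 unchanged genes 2 were called. A gene not called may thus still differ. Positions and exon lengths come from GENCODE M21, whose assembly GRCm38 is that of mm10, matched by symbol.

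The labels place same-numbered IP and Input libraries on the same sequencing lane, so a fit with the number as a block was run beside the main one, which has no block. Deviations from the group means correlated across genes at 0.0313, 0.0450 and 0.0243 for numbers 1, 3 and 4, and genes are not independent replicates. The alternatives were this block, DESeq2 1.42.0 and its size factors, total counts, 2 other filters, a prior count of 0.5 for ratios between members, and leaving out each library. The members and lists were chosen with earlier results of these data known. The named genes are the members, the called genes and the 2 most abundant of each endothelial list, the 3 genes closest in pattern to a member, and near copies. Of the endothelial identity list Eng and Clec14a are also named, as the extremes of its folds. Of the marker lists Vtn and Aldoc are named with values, and blood genes at 0 are named.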

Additional observations from a re-analysis of the deposited data

Results flagged for a closer look

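In 3 of 44 groups of 4 Inputs, each of a named gene, 1 library lay apart from the other 3 by more than Dixon's 95% critical value of 0.829 for the gap over the range. Chance alone gives about 1 in 20. Pecam1 had 3.05 CPM in Input 4 and 0.464 to 0.559 in the others. Ackr1 had 63.0 CPM in Input 4, against 41.6 to 44.3. Vtn had 8.02 CPM in Input 2, against 3.61 to 4.29.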

How the results depend on the processing

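The count of 2 members higher in IP was 2 with DESeq2, its size factors in edgeR, total counts and both other filters, 0 with the replicate block, and 0 to 2 when 1 library was left out. The count of members lower was 0 in all 13 alternatives. The stricter filter, at least 1 CPM in at least 3 libraries, tested 7 members. The blocked fit turned the log2 fold of Cldn5 from -0.83 to 0.20. Leaving out 1 library turned the sign of folds near 0, which then ranged from -2.33 to 0.46 (Pecam1), -0.50 to 0.49 (Flt1), -0.029 to 1.54 (Kdr), -0.37 to 0.10 (Slco1a4), -0.24 to 1.03 (Abcb1a), -0.10 to 0.43 (Vegfa), -0.13 to 0.34 (Ppap2a), -0.10 to 1.05 (Nr2f2) and -0.13 to 0.38 (the astrocyte gene Aldoc). The log2 fold of Cdh5 ranged from 2.50 to 4.12 and that of Slc2a1 from 1.34 to 2.01. Lrp8 lost its call without a filter (edgeR adjusted p = 0.0503) and Apcdd1 with the stricter filter (edgeR adjusted p = 0.0504). Of the 45 pairs of members 0 passed with a prior count of 2 or of 0.5, an outcome that the few possible splits nearly fixed. Over all genes edgeR called 633 higher and 376 lower, DESeq2 1396 and 962, and the block 96 and 33. Without 1 library the numbers were 4 to 2259 and 16 to 1724. Beside those of Cdh5, Slc2a1, Lrp8 and Apcdd1, the block changed no call of a member or other endothelial gene named. Single libraries held under 10 reads of Pecam1, Cldn5, Kdr and Abcb1a, which limits what can be seen of these genes.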
